A study of Mus musculus with 39 samples.

Results

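The lungs of mice that had inhaled mainstream tobacco smoke (MTS) for 12 weeks were compared with the lungs of sham mice of the same 12 weeks. The comparison rests on 9 of the 39 arrays of the series, 4 of MTS lungs and 5 of sham lungs, chosen by titles that name 12 weeks of smoke or of sham and no break. All mice were male C57BL/6 × CBA F1 hybrids, and no allele or drug differed between the groups. The labels give an age of 8 to 10 weeks, which the study states for the mice put into exposure. The lungs were therefore taken at a greater age, which differs between the 6 week, 12 week and break groups. The MTS mice took smoke through the nose from 2 reference cigarettes on each of 5 days weekly through 12 weeks, the first 2 of which were a lead-up, and the sham mice were held in restrainers only. The labels put sampling at 3 h after exposure. RNA came from the upper part of a left lobe that had not been lavaged, so free cells of the airspaces were still in it. Each array stands for 1 mouse, numbered m1 to m4 (MTS) and m1 to m5 (sham) in the order of their records, and m1 of one group is not paired with m1 of the other. Where 2 further comparisons are read beside this one, they use 5 lungs after 6 weeks of MTS with 5 of 6 week sham mice, and 5 lungs after 12 weeks of MTS and a break of 6 weeks with 5 sham mice of that break.

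Values are log2 of lung RNA (Cy5) over a commercial mouse reference RNA (Cy3) on the same array, and differences between groups are log2 fold changes, MTS over sham. A value therefore says how a gene stands against the reference, and levels of different genes cannot be set against each other. On the 9 arrays the median lung signal lay between 300.5 and 1061 units in MTS lungs, against 268 and 1309.25 units in sham lungs, and 74.5% to 80.1% of the gene probes in MTS lungs, against 72.2% to 90.5% in sham lungs, stood above the negative controls. The number of arrays limits the precision. Markers of alveolar epithelium (Sftpb, Sftpa1, Ager), club cells (Scgb1a1) and endothelium (Pecam1, Cdh5, Kdr) were above the negative controls on all 9 arrays, as a lung sample needs. Because whole tissue was measured, fewer cells of a type and less RNA per cell cannot be told apart. Exposure dates on the labels form a sequence that was read as 5 runs and entered the fit as a block. The MTS lungs lie in runs 1 to 4, 1 in each, and the sham lungs in all 5.

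Inhaled smoke carries polycyclic aromatic hydrocarbons, which bind the aryl hydrocarbon receptor (AhR). The liganded receptor enters the nucleus, pairs with Arnt and switches on cytochrome P450 enzymes of the CYP1 family, together with its own repressor Ahrr. Smoke also carries aldehydes, quinones and oxidants, which release the transcription factor Nrf2 from its inhibitor Keap1, and Nrf2 then raises the enzymes that make glutathione, reduce thioredoxin and detoxify carbonyls. Inflammation is a slower layer, in which macrophages load with particles and lipid and epithelium and stroma release cytokines such as interleukin 6.

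After 12 weeks, 76 of the 17560 probes tested passed a Benjamini-Hochberg adjusted p of 0.05 in limma (0.433% of probes). MTS raised 66 of them (0.376% of probes tested) and lowered 10 (0.0569%). They stand for 62 genes higher and 9 lower, and 3 of the probes carry no single gene symbol. The median increase among the called probes was 1.79-fold and the median decrease 1.46-fold, and 29 probes rose more than 2-fold while 0 fell that far. The MTS and sham arrays did not overlap at 58 of the 66 higher probes and at 8 of the 10 lower ones, in a table where 1.99% of all probes lay wholly above sham and 1.38% wholly below. Within each of the 4 runs that hold both groups, MTS stood above sham in all 4 at 66 of 66 higher probes and below it in all 4 at 9 of 10 lower ones (11.3% and 8.93% of all probes). These counts describe the same values that chose the probes and test nothing further. Of the called probes, 72 were above the negative controls on all 9 arrays.

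**Figure D1:**
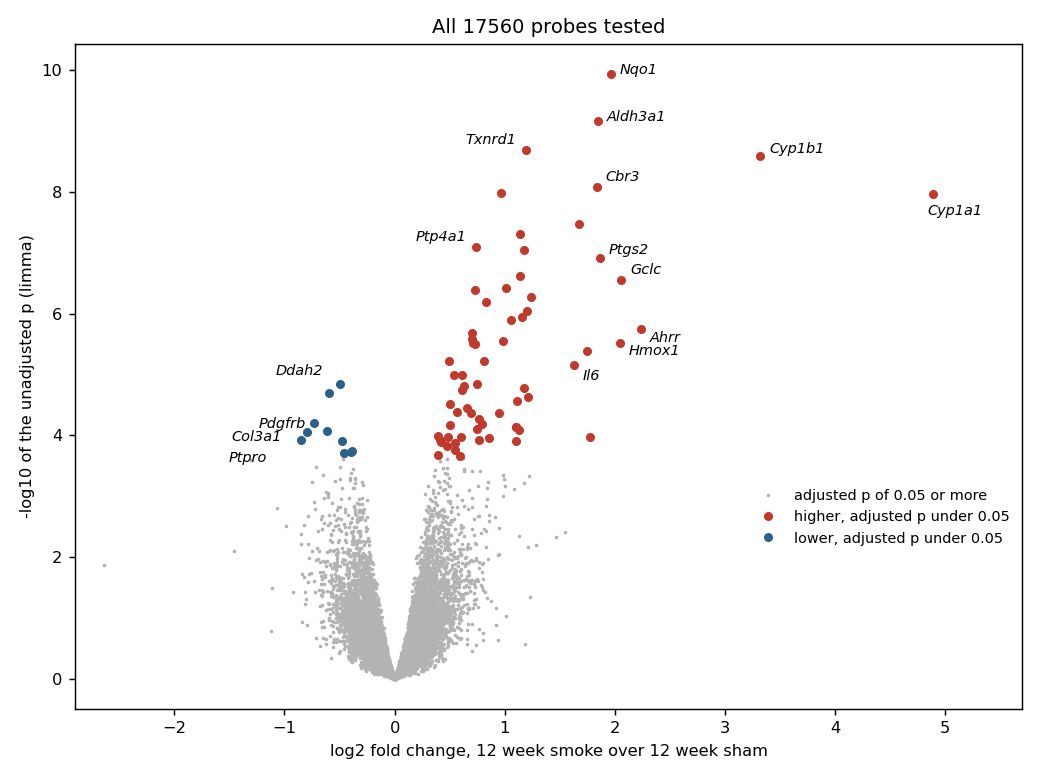
Each point is 1 of the 17560 probes tested, with the log2 fold change of 12 week smoke over 12 week sham on the x axis and -log10 of the unadjusted limma p on the y axis. The 66 probes called higher (red) reach 4.88 at Cyp1a1, while the 10 called lower (blue) end at -0.85 at Ptpro.

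The AhR battery gave the largest changes. Cyp1a1, which oxidises polycyclic hydrocarbons, read 5.53, 7.36, 6.47 and 7.04 in the MTS lungs, against 1.85, 1.66, 1.03, 2.46 and 2.07 in the sham lungs. Cyp1b1, its relative of stromal and epithelial cells, read 1.97, 2.28, 1.63 and 2.32 in the MTS lungs, against -0.49, -1.53, -1.15, -0.81 and -1.69 in the sham lungs. Ahrr, the repressor that competes with AhR for Arnt, read 2.01, 2.28, 1.48 and 1.24 in the MTS lungs, against -1.31, -0.44, 0.21, -0.011 and -0.39 in the sham lungs. For each of the 3 genes the lowest MTS lung was above the highest sham lung, so the smoke labels of all 9 arrays fit their exposure genes. The log2 fold change was 4.88 ± 0.63 for Cyp1a1 (SE, 29.5-fold, limma adjusted p = 2.70e-05), 3.32 ± 0.40 for Cyp1b1 (9.99-fold, 1.14e-05) and 2.24 ± 0.38 for Ahrr (4.71-fold, 0.00145). Cyp1a1 spots were saturated on 2 of the 4 MTS arrays, and its fold is for that reason more likely too small than too large.

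Nqo1, a quinone reductase under both AhR and Nrf2, had the smallest p of all probes. It read 0.28, 0.14, -0.059 and 0.17 in the MTS lungs, against -1.57, -1.68, -1.75, -1.61 and -1.94 in the sham lungs (1.96 ± 0.21, 3.90-fold, limma adjusted p = 2.03e-06). Aldh3a1, an aldehyde dehydrogenase of the same battery, read 1.52, 1.40, 1.32 and 1.64 in the MTS lungs, against -0.16, -0.23, -0.31, -0.40 and -0.33 in the sham lungs (1.85 ± 0.21, 3.6-fold, adjusted p = 6.07e-06). Tiparp, an ADP-ribosyltransferase that dampens AhR, rose by 1.41-fold (adjusted p = 0.0230), and its call was lost without MTS m1, m2 or m4 or sham m1 or m2 (adjusted p up to 0.124). The other calls of the battery held when any 1 of the 9 arrays was left out. Counted by genes with 1 representative probe each, 6 of the 9 measured AhR-responsive genes rose, where 0.409% of all 14655 genes did, with a list median of 1.85 beside 0.0061 over all genes. The receptor itself did not pass (Ahr 0.35 ± 0.18, adjusted p = 0.571), nor did its partner Arnt (0.35 ± 0.15, adjusted p = 0.443).

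**Figure D2:**
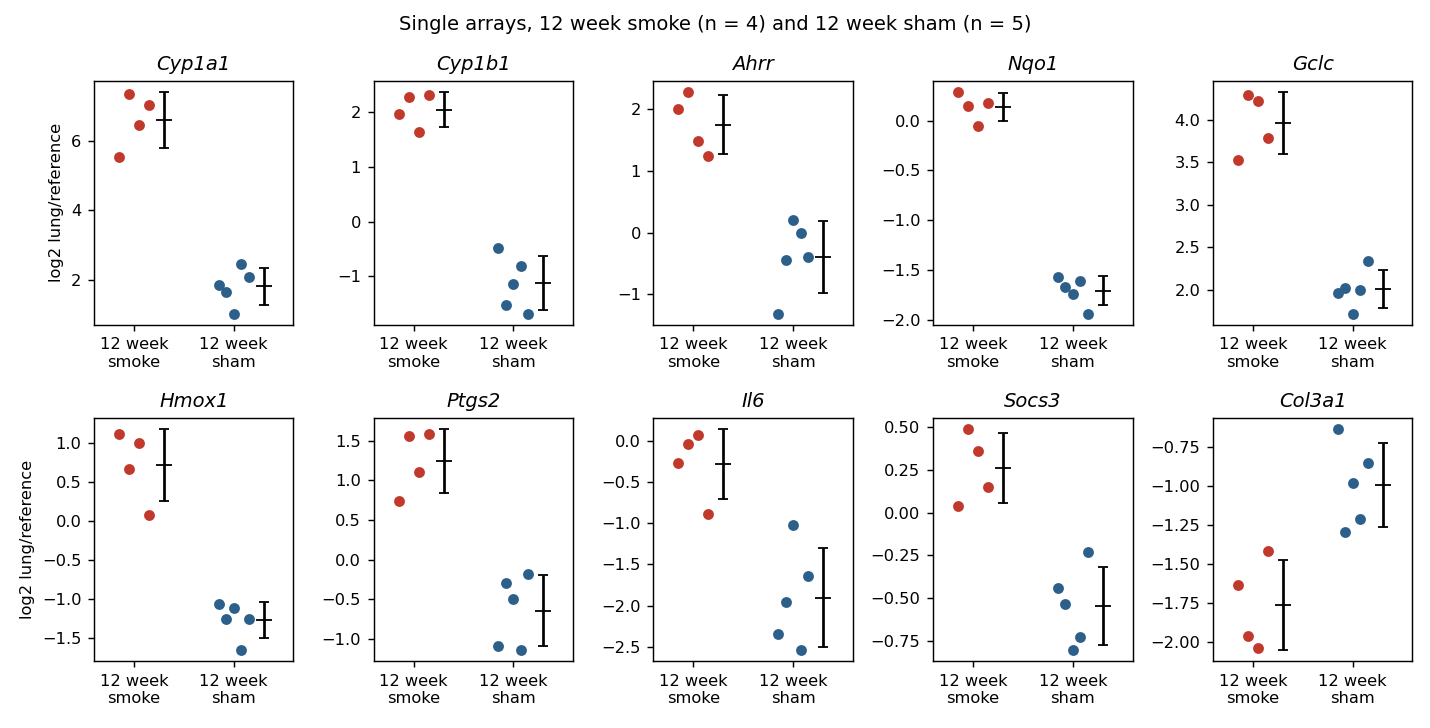
Each panel shows 1 gene as log2 lung over reference (y axis) in 4 MTS lungs (red, left) and 5 sham lungs (blue, right), with the mean and SD as a black mark beside the points. Every gene except Col3a1 lies higher in all MTS lungs than in all sham lungs, and Col3a1 lies lower.

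AhR with Arnt recognises the xenobiotic response element, whose core reads GCGTG. The following stretches are the last 150 bases before the RefSeq start of the 3 AhR genes with the largest changes, shown because this core lies in each of them, and the capitals mark the core on either strand. They are written in the direction of the gene from GRCm38.p6 and lie at chr9:57697463-57697612 (plus strand), chr17:79715062-79715211 (minus) and chr13:74292332-74292481 (minus).
Cyp1a1: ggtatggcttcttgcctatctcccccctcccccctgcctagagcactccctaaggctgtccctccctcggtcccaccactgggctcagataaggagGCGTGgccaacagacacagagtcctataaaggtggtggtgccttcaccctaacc
Cyp1b1: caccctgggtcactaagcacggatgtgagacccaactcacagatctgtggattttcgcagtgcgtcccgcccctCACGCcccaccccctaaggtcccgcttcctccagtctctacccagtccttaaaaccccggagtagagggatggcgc
Ahrr: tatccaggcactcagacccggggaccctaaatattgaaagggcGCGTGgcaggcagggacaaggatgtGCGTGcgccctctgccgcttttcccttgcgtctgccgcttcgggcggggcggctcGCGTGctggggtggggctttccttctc
Cyp1a1 and Cyp1b1 hold 1 core each in this stretch and Ahrr holds 3. The core is short and common. In windows of 300 bases around the start, on both strands, it was found for 32 of the 53 higher genes with a RefSeq window (60.4%), for 2 of 8 lower genes (25%), for 49.1% of all tested genes with a window and for 35.2% of all genes of that table. A match is a string of letters and no evidence of binding.

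Glutathione synthesis and thioredoxin reduction formed the second group of responders. Gclc, the catalytic subunit of glutamate-cysteine ligase and so the first step of glutathione synthesis, read 3.52, 4.29, 4.22 and 3.79 in the MTS lungs, against 1.96, 2.03, 1.72, 1.99 and 2.34 in the sham lungs. Hmox1, which breaks down heme, read 1.12, 0.67, 1.00 and 0.086 in the MTS lungs, against -1.06, -1.25, -1.11, -1.65 and -1.25 in the sham lungs. Srxn1, which repairs over-oxidised peroxiredoxins, read 0.75, 0.69, 0.60 and 0.018 in the MTS lungs, against -1.02, -0.98, -1.32, -0.78 and -1.21 in the sham lungs. MTS m4 was the lowest of the exposed lungs for both Hmox1 and Srxn1, and still stood above all 5 sham lungs. The log2 fold changes were 2.06 ± 0.31 for Gclc (SE, 4.17-fold, limma adjusted p = 3.46e-04), 2.05 ± 0.36 for Hmox1 (4.13-fold, 0.00198) and 1.67 ± 0.23 for Srxn1 (3.19-fold, 7.43e-05). A second, dimmer probe of Srxn1 gave 0.49 ± 0.17 and did not pass (adjusted p = 0.286).

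The modifier subunit of the same ligase, Gclm, rose by 2.08-fold (adjusted p = 0.00106, limma). Thioredoxin reductase 1, Txnrd1, read 0.50, 0.68, 0.40 and 0.14 in the MTS lungs, against -0.65, -0.78, -0.78, -0.65 and -0.61 in the sham lungs. Its change was 1.19 ± 0.14 (2.29-fold, adjusted p = 1.14e-05), with an SE near the median SE of the called probes (0.15). Osgin1, a growth inhibitor induced by oxidative stress, rose by 2.25-fold (adjusted p = 1.43e-04), and the glutathione transferase Gsta1 by 2.22-fold (9.95e-04), although its probe may also bind the near-identical Gsta2. Glutathione reductase, Gsr, was called through its dimmer probe (0.73 ± 0.13, adjusted p = 0.00198), while its brighter probe gave 0.46 ± 0.15 (adjusted p = 0.248), both with MTS wholly above sham. Of the 40 measured genes of the antioxidant and Nrf2 list, 10 rose by their representative probe, 0 fell and 34 lay above 0. Over all genes 0.409% rose, 0.0614% fell and 51.2% lay above 0. Averaged over these 40 genes, the MTS lungs lay between 0.64 and 0.74 and the sham lungs between 0.096 and 0.22, while the mean over all genes overlapped (0.095 to 0.15 in MTS and 0.075 to 0.13 in sham lungs). Among the regulators, Nfe2l2, which encodes Nrf2, gave 1.01 ± 0.27 without passing (adjusted p = 0.0996), and Keap1 (0.051 ± 0.089) and Bach1 (-0.14 ± 0.24) lay within 1 SE of 0. Of the 33 genes of glutathione synthesis and conjugation, Gclc, Gclm and Gsta1 rose (9.09%) and the list median was 0.19. All calls named here held without any 1 of the 9 arrays.

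Nrf2 binds the antioxidant response element, whose core was searched as TGACNNNGC on both strands. Gclm and Txnrd1 are shown because a core lies in their last 150 bases before the start, in capitals, read on the opposite strand in both (chr3:122245407-122245556 and chr10:82859056-82859205, both plus strand, GRCm38.p6, RefSeq).
Gclm: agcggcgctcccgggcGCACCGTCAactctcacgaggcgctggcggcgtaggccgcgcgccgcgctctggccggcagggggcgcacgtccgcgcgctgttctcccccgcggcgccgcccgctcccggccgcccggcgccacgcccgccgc
Txnrd1: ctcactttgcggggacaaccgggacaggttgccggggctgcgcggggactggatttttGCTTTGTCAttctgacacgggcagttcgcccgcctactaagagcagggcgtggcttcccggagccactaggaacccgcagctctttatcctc
In the 300 base windows this core was found for 11 of the 53 higher genes (20.8%), for 0 of 8 lower genes, for 16.1% of tested genes and for 14% of all genes in the table. Of the Nrf2 genes that rose and had a window, 3 of 8 held it. A window without a match says only that these letters are not in it.

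Enzymes that oxidise or reduce aldehydes and other carbonyls rose beside Aldh3a1. Cbr3, a carbonyl reductase, read 2.58, 2.75, 3.15 and 2.80 in the MTS lungs, against 1.08, 1.18, 0.90, 1.15 and 0.98 in the sham lungs (1.84 ± 0.23, 3.57-fold, limma adjusted p = 2.70e-05). Adh7, an alcohol dehydrogenase that also oxidises retinol, read 2.29, 2.00, 2.26 and 1.82 in the MTS lungs, against 1.05, 0.10, 0.15, 0.95 and 0.27 in the sham lungs (1.75 ± 0.31, 3.36-fold, 0.00246). The sham lungs fell into a higher pair (m1 and m4) and a lower trio for Adh7, and both lay below every MTS lung. Akr1b8, an aldo-keto reductase with close relatives that a probe could also bind, rose by 2.37-fold (adjusted p = 5.56e-04), and the aldehyde oxidase Aox1 by 2.20-fold (3.22e-04). With Aldh3a1 these made 5 of 28 genes of the list (17.9%, where 0.409% of all genes rose), with a median of 0.12. Pon3, a lactonase carried on lipoproteins, rose by 1.45-fold (adjusted p = 0.00529). All of these calls held without any 1 of the 9 arrays. In contrast, 0 of 25 cytochrome P450 genes outside the CYP1 family and 0 of 25 ABC transporters passed, with medians of -0.038 and -0.044. At an unadjusted p under 0.05, 0 of these P450 genes were higher and 1 lower, and 2 transporters were higher and 2 lower. Over all genes 5.77% were higher and 4.04% lower by that measure.

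Of 42 inflammatory mediators 4 were called higher (9.52%, where 0.409% of all genes rose), Ptgs2 and Il6 by the most. Ptgs2, the inducible cyclooxygenase that makes prostaglandins, read 0.74, 1.55, 1.11 and 1.58 in the MTS lungs, against -1.09, -0.29, -0.50, -1.14 and -0.18 in the sham lungs (1.86 ± 0.27, 3.63-fold, limma adjusted p = 1.74e-04). Il6, the cytokine that signals through gp130 to Stat3, read -0.27, -0.041, 0.063 and -0.89 in the MTS lungs, against -2.34, -1.96, -1.02, -2.54 and -1.64 in the sham lungs (1.63 ± 0.30, 3.09-fold, 0.00383). MTS m4 and sham m3 lay closest to each other for Il6, at -0.89 and -1.02, and 2 of the 5 sham arrays were not above the negative controls, so the sham level is uncertain and the fold likewise. Without MTS m1 the adjusted p was 0.0450. The Il6 call was lost under 3 of the 23 other settings, with adjusted p up to 0.232. One of them was the fit without the spots that the scanner software had marked.

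Socs3, the inhibitor that Stat3 induces to stop the signal, read 0.036, 0.49, 0.36 and 0.15 in the MTS lungs, against -0.44, -0.54, -0.81, -0.73 and -0.23 in the sham lungs (0.83 ± 0.13, 1.77-fold, limma adjusted p = 6.38e-04). Bcl3, an atypical IκB protein of the NF-κB system, rose by 2.20-fold (adjusted p = 9.49e-05), with MTS m2 at 1.18 and the other MTS lungs between 0.55 and 0.59. The chemokine Ccl17, which draws T cells and comes largely from dendritic cells, rose by 1.63-fold (0.00160). Tnfaip2, a gene induced by tumour necrosis factor, rose by 1.48-fold (0.0163), a call that was lost without MTS m2, m3 or m4 or sham m2 or m3 (adjusted p up to 0.0911). Ptgs2, Socs3, Bcl3 and Ccl17 held without any 1 of the 9 arrays. The calls made 4 of 42 inflammatory mediators (Ptgs2, Il6, Ccl17, Tnfaip2) and 3 of 40 genes of IL-6 and Stat3 signalling (Il6, Socs3, Bcl3). These are 9.52% and 7.5%, where 0.409% of all genes rose, and the list medians were 0.097 and 0.11. At an unadjusted limma p under 0.05, 11 and 9 members were higher and 1 in each list lower, beside 5.77% and 4.04% of all genes. Other prominent members did not pass. Il1b gave -0.55 ± 0.44 (adjusted p = 0.784), Tnf -0.073 ± 0.13 (0.937), Ccl2 0.15 ± 0.21 (0.911) and Stat3 itself 0.15 ± 0.11 (0.766). The neutrophil attractant Cxcl1 lay wholly above sham at 0.84 ± 0.22 without passing (adjusted p = 0.103).

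Of 46 macrophage and lysosome genes, 5 rose (10.9%, where 0.409% of all genes did). Gpnmb, a membrane glycoprotein of lipid-laden macrophages, read -1.33, -1.32, -1.76 and -1.49 in the MTS lungs, against -2.68, -2.67, -2.25, -2.80 and -3.0 in the sham lungs (1.21 ± 0.20, 2.31-fold, limma adjusted p = 8.28e-04). Trem2, a lipid receptor of the same cells, read -1.44, -1.34, -1.79 and -1.39 in the MTS lungs, against -2.17, -2.25, -2.24, -2.25 and -2.31 in the sham lungs (0.75 ± 0.15, 1.68-fold, 0.00706). MTS m3 was the lowest of the exposed lungs for both. The lysosomal protease Ctss rose by 2.15-fold (adjusted p = 0.0331), its relative Ctsd by 1.62-fold (0.0163), and Pparg, the nuclear receptor that alveolar macrophages and adipocytes need, by 1.63-fold (0.00189). Of all 46, 37 lay above 0 (51.2% of all genes did) with a list median of 0.29. At an unadjusted limma p under 0.05, 20 were higher and 0 lower, beside 5.77% and 4.04% of all genes. Averaged over the list, the MTS lungs lay between 0.76 and 0.97 and the sham lungs between 0.39 and 0.64.

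Markers of alveolar macrophages lay on the same side. The mean of Marco, Chil3, Cd68 and Itgax lay between 1.48 and 1.97 in MTS lungs and between 0.51 and 1.39 in sham lungs, and 0 of the 4 passed. Itgax gave 0.63 ± 0.16 (adjusted p = 0.0712) and Chil3 gave 1.46 ± 0.48 (0.231), with sham m5 at 4.14, above all MTS lungs. The part of cell number in the macrophage genes was not tested. The calls of Gpnmb and Pparg held without any 1 array, while Trem2 was lost without MTS m1 or m2 (adjusted p up to 0.0667), Ctsd without MTS m2 or m4 or sham m3 (up to 0.127) and Ctss without any single MTS array or without sham m2 or m3 (up to 0.189). Under the other scalings and designs tried, between 1 and 5 members were called and the list median stayed above 0.

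Calls also fell on dendritic cell genes, all of them higher. Zbtb46, a transcription factor of classical dendritic cells that endothelium also makes, rose by 2.15-fold (adjusted p = 0.0115, limma), with MTS m3 at 1.52 inside the sham range of 0.79 to 2.02. Ly75, an endocytic receptor of dendritic cells, rose by 1.55-fold (0.00726), and Csf2rb2, the beta chain of the mouse interleukin 3 receptor, by 1.51-fold (0.0496), but its probe may also bind the near-identical Csf2rb. Ch25h, which makes 25-hydroxycholesterol, rose by 2.15-fold (0.0241). Of these, Zbtb46 was lost without MTS m2 or sham m2 (adjusted p up to 0.0798), Ly75 without MTS m2 or m4 (0.0676), Ch25h without 6 of the arrays (0.117) and Csf2rb2 without 7 (0.293). Of 20 dendritic cell and MHC class II genes, only Ccl17 and Zbtb46 passed (10%, where 0.409% of all genes rose), and 14 lay above 0 (51.2% of all genes did). Lymphocyte lists gave 0 calls, with 11 of 13 B cell genes and 21 of 25 T and NK cell genes below 0 and medians of -0.43 and -0.12. Over all 14655 genes, 7155 lay below 0. In single runs the B cell median was -0.85 in run 1 and between -0.29 and 0.030 in the other 3. The lowest p of these lists was that of Jchain (-0.85 ± 0.29, adjusted p = 0.257). Neutrophil genes gave 0 of 15, with a median of 0.031 that changed sign under other settings, and their list means overlapped, at 0.42 to 1.42 in MTS lungs and 0.62 to 1.09 in sham lungs.

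Epithelial genes of repair and shape rose in part. Sfn, which encodes 14-3-3 sigma of stratified and injured epithelium, read 1.84, 1.71, 1.21 and 1.99 in the MTS lungs, against 0.47, 0.60, 0.33, 0.70 and 0.32 in the sham lungs (1.21 ± 0.24, 2.31-fold, limma adjusted p = 0.00999). Krt19, a keratin of simple epithelium and mesothelium, rose by 1.76-fold (0.00345), and Elf3, an epithelial ETS factor, by 1.70-fold (0.0195). They made 3 of 21 genes of the keratin and injury list (14.3%, where 0.409% of all genes rose). The list averaged 0.78 to 0.96 in MTS lungs and 0.47 to 0.70 in sham lungs. Krt19 held without any 1 array, Sfn was lost without MTS m1 or m4 (adjusted p up to 0.0818) and Elf3 without MTS m1, m2 or m4 or sham m2 or m3 (up to 0.131). Dmbt1, a mucosal scavenger protein, rose by 1.81-fold (0.0316) with MTS m3 at -0.19 inside the sham range. Mpp7, a scaffold of epithelial junctions, rose by 1.68-fold (0.0257), also with overlap, and each was lost without any 1 of 6 arrays (adjusted p up to 0.230 and 0.140). Markers of resting lung cells gave 0 calls: type I cells 0 of 11, type II cells 0 of 16, club cells 0 of 21, ciliated cells 0 of 14 and endothelium 0 of 23. At an unadjusted p under 0.05 there were 1, 4, 2, 0 and 3 of them, beside 5.77% of all genes higher and 4.04% lower.

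Stress and growth control genes were the third named set. Gadd45g, a growth arrest protein, read 0.19, 1.13, 0.61 and 0.33 in the MTS lungs, against -0.34, -0.19, -0.59, -0.72 and -0.26 in the sham lungs (0.99 ± 0.17, 1.98-fold, limma adjusted p = 0.00196). Nfil3, a bZIP repressor tied to the clock and to immune cells, read -1.37, -0.72, -1.23 and -0.53 in the MTS lungs, against -1.81, -1.79, -2.23, -2.18 and -1.97 in the sham lungs (1.01 ± 0.16, 2.02-fold, 4.49e-04). Ptp4a1, the phosphatase PRL-1, was measured by 3 probes and all 3 rose, by 1.95-fold, 1.67-fold and 1.66-fold (adjusted p = 2.70e-05, 1.41e-04 and 4.49e-04). These 3 genes held without any 1 of the 9 arrays. The Hsp110 relative Hspa4l rose by 1.70-fold (limma adjusted p = 0.0326), the only call among 26 heat shock genes (3.85%, where 0.409% of all genes rose). Of these 26, 24 lay above 0 and 12 were higher at an unadjusted p under 0.05, beside 51.2% and 5.77% of all genes. The call of Hspa4l was lost without any one of MTS m1 to m4 or of sham m2 to m5, with adjusted p up to 0.131. Of the same list Hspa1a gave 1.29 ± 0.44 (adjusted p = 0.262) and lay wholly above sham. Averaged over the 26 genes, the MTS lungs lay between 0.18 and 0.29 and the sham lungs between -0.16 and 0.094.

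Among 29 glucocorticoid-responsive genes there were 0 calls. Averaged over the list the MTS lungs lay between 0.96 and 1.26 and the sham lungs between 0.46 and 0.89. Of its genes, 24 lay above 0 and 11 were higher at an unadjusted p under 0.05, beside 51.2% and 5.77% of all genes. The smallest p of the list belonged to Map3k6 (0.85 ± 0.22, limma adjusted p = 0.0921) and to the metallothionein Mt1 (0.66 ± 0.19, 0.155). The unfolded protein and integrated stress response gave 0 of 28, led by the serine synthesis enzyme Phgdh (0.77 ± 0.19, 0.0748) and Xbp1 (0.36 ± 0.10, 0.155). No call was made either among 36 proliferation genes, whose median of 0.0012 changed sign with the setting, or among 26 immediate early genes, whose smallest p was that of Ier3 (0.57 ± 0.16, 0.121).

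The remaining higher genes fall outside the lists. Both starters of the clotting cascade, F7 (factor VII, 2.26-fold, limma adjusted p = 0.00776) and F3 (tissue factor, 1.73-fold, 0.0228), rose, although MTS m3 at 1.34 lay inside the sham range for F7 and the call of F7 was lost without MTS m1 (0.0504). Membrane and signalling proteins included the calcium pump Atp2b2 (2.19-fold, 0.0257), the semaphorin receptor Plxna2 (1.93-fold, 0.0163), the netrin receptor Unc5b (1.52-fold, 0.0309), Lrp12 (1.64-fold, 0.00198), the sphingosine kinase Sphk1 (1.53-fold, 0.00821), the podosome adaptor Sh3pxd2b (1.47-fold, 0.0347) and the peptidase Ece2 (1.31-fold, 0.0309). Gasdermin E, Gsdme, a pore former of cell death, rose by 2.15-fold (0.0241). Second probes of Gsdme (0.10 ± 0.14), Plxna2 (-0.016 ± 0.26) and Ece2 (0.13 ± 0.18) did not pass and were dimmer. The others that rose were Eif1a and Pno1 of translation and the small ribosomal subunit (1.46-fold and 1.39-fold), Taf9 of transcription (1.32-fold, with its other probe at 0.17 ± 0.10), Usp16 and Senp5, which remove ubiquitin and SUMO (1.34-fold and 1.33-fold), Piga of the lipid anchor pathway (1.42-fold), the repressor Tgif1 (1.41-fold) and Lonrf3 (1.53-fold). Of all these, Lrp12, Sphk1, Tgif1 and Lonrf3 held without any 1 of the 9 arrays, and the others were lost without at least 1, with adjusted p up to 0.286 for Taf9. 1810010H24Rik, a gene of no known role, had a 3.43-fold change (0.0309) that rested on uneven sham lungs, at 2.68, 0.73, 2.53, 3.65 and 3.29, beside 4.30, 4.57, 3.90 and 4.54 in the MTS lungs. Its call was lost without any 1 MTS array or without sham m1 or m2 (adjusted p up to 0.15). The called probes without a symbol gave 0.66 ± 0.14 (A_51_P153013), 0.48 ± 0.11 (A_51_P483301) and -0.73 ± 0.16 (A_51_P284741).

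The genes that fell were fewer and changed by less. Col3a1, the fibrillar collagen III chain, read -1.64, -1.96, -2.04 and -1.42 in the MTS lungs, against -0.64, -1.29, -0.98, -1.21 and -0.85 in the sham lungs (-0.80 ± 0.18, 1.74-fold lower, limma adjusted p = 0.0275). Col5a1, a collagen that starts such fibrils, read -2.39, -2.69, -2.40 and -2.16 in the MTS lungs, against -1.82, -2.11, -1.93, -1.91 and -1.85 in the sham lungs (-0.46 ± 0.11, 0.0470). Pdgfrb, the growth factor receptor of pericytes and fibroblasts, fell by 0.61 on the log2 scale (0.0266), with sham m3 at 1.40 among the MTS lungs of 1.29 to 1.71. These 3 made the calls of the matrix list of 46 genes, where 0.0614% of all genes fell. Of its members 34 lay below 0, with a median of -0.14, beside 7155 of all 14655 genes below 0. Col1a1 (-0.23 ± 0.12, adjusted p = 0.589) and Col1a2 (-0.37 ± 0.15, 0.408) did not pass. Under the other scalings and designs tried, between 0 and 3 members were called lower.

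Outside the matrix, Ptpro, a receptor phosphatase, read -0.029, 0.21, 0.26 and -0.0068 in the MTS lungs, against 1.19, 0.55, 0.80, 1.5 and 0.96 in the sham lungs (-0.85 ± 0.19, 1.81-fold lower, limma adjusted p = 0.0326). Ddah2, which degrades the nitric oxide synthase inhibitor dimethylarginine, read 0.18, -0.026, -0.013 and -0.0069 in the MTS lungs, against 0.42, 0.45, 0.41, 0.62 and 0.83 in the sham lungs (-0.50 ± 0.096, 1.41-fold lower, 0.00706). Ifi203, an interferon-induced nuclear protein of a family with close copies, fell by 0.59 on the log2 scale (0.00893). It was the 1 call among 47 interferon-responsive genes (2.13%, where 0.0614% of all genes fell). Of the 47, 40 lay below 0 (7155 of all 14655 genes did). Averaged over the list, the MTS lungs lay between -0.049 and 0.16 and the sham lungs between 0.19 and 0.32. The cell cycle kinase Cdk6 fell by 0.47 (0.0329), with a dimmer probe at -0.23 ± 0.25 that did not pass, Iftap by 0.40 (0.0452) and Taz, the cardiolipin enzyme tafazzin, by 0.39 (0.0439). Every one of the 10 lower calls was lost without at least 1 of the 9 arrays, Ddah2 and Ifi203 only without MTS m2 or m4 (adjusted p up to 0.0601 and 0.0667). For Col3a1, Col5a1, Pdgfrb and Ptpro the adjusted p went up to 0.135, 0.264, 0.166 and 0.163, and for Cdk6, Iftap and Taz up to 0.139, 0.187 and 0.246.

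**Figure D3:**
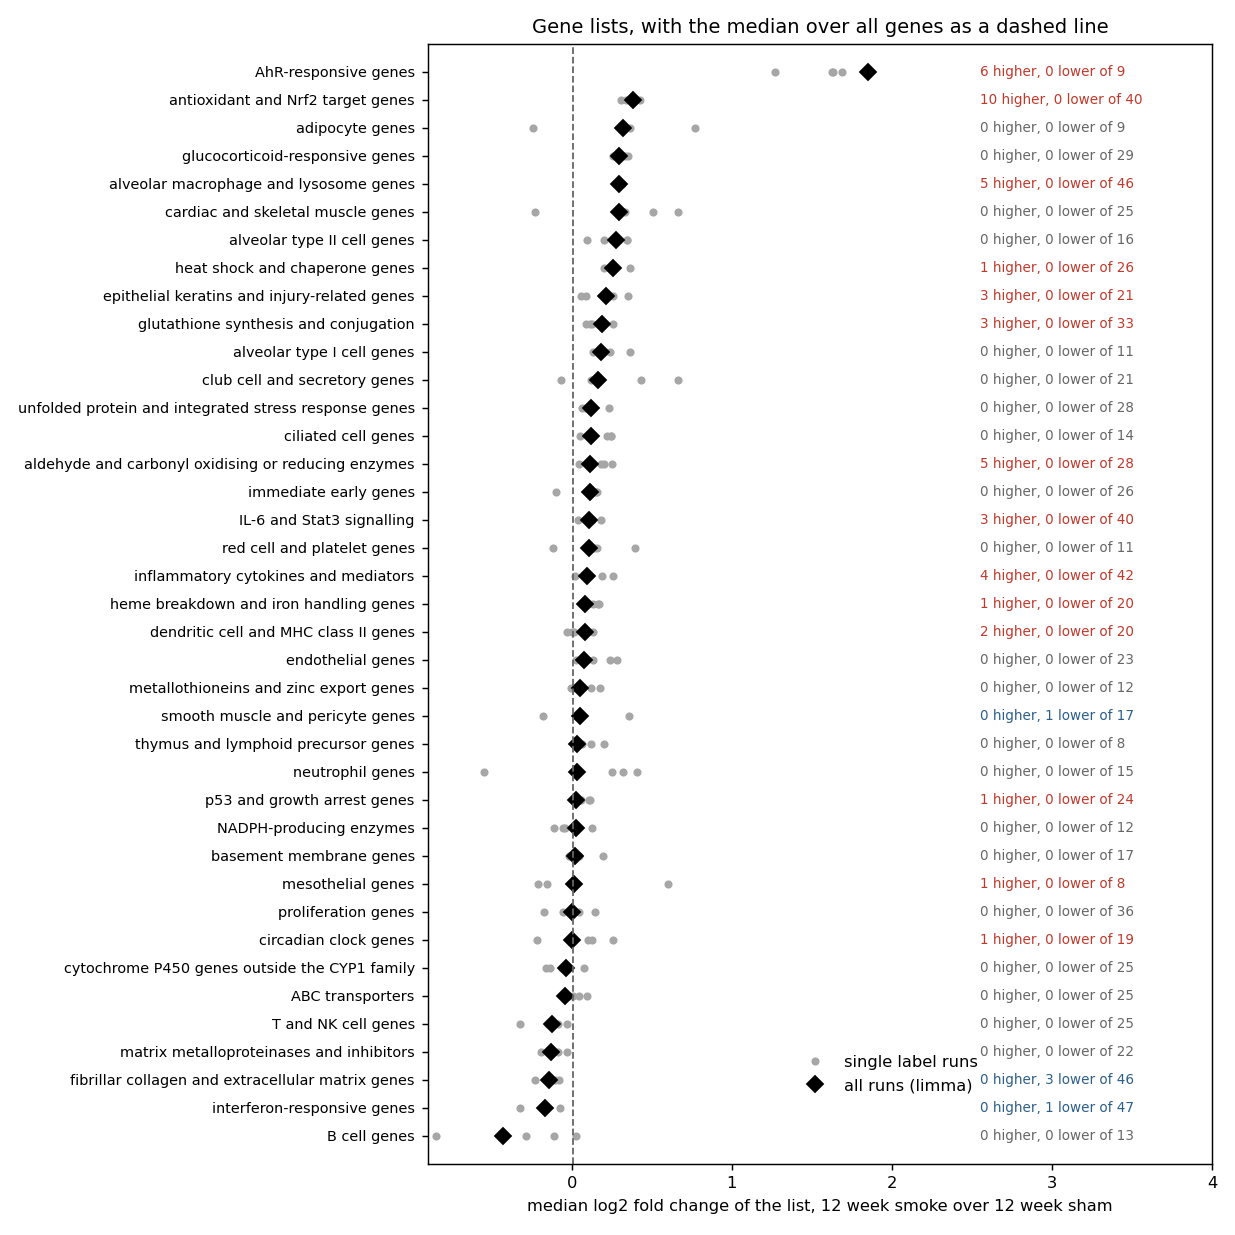
Each row is 1 of 39 gene lists, with the median log2 fold change of 12 week smoke over 12 week sham on the x axis (black diamond, limma over all runs; grey points, single runs) and the number of members called at the right. The AhR list stands at 1.85, the antioxidant and Nrf2 list at 0.38 and the macrophage list at 0.29, while the B cell list stands at -0.43.

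Over all 39 lists, 827 genes were measured and 39 of the called genes belong to a list, while 30 belong to none. Called genes occurred in 17 lists, higher in 14 of them and lower in 3. Besides those described, the heme and iron list gave Hmox1, the mesothelial list Krt19 and the pericyte list Pdgfrb. Muscle, fat, red cell, thymus, metalloproteinase, basement membrane, metallothionein and NADPH lists gave 0 calls. The medians of the fat and muscle lists were 0.32 and 0.29, with 9 of 9 fat genes above 0 (51.2% of all genes were). In single runs the 2 medians ranged from -0.24 to 0.77 and from -0.23 to 0.67. The part of attached fat in the call of Pparg was not tested. Their smallest adjusted p values in limma were 0.274 for Myh7, 0.372 for Lpl, 0.397 for Hbb-bh1, 0.889 for Ptcra, 0.167 for Adam8, 0.664 for Lama2, 0.155 for Mt1 and 0.146 for Mthfd1. Heart and blood markers, which can enter a dissected lobe, overlapped between the groups, at 2.42 to 3.08 in MTS and 2.11 to 3.06 in sham lungs for heart muscle and 1.69 to 3.79 in MTS and 1.71 to 3.19 in sham lungs for red cells.

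At the called probes the 4 exposed lungs lay at similar distances from sham. The same arrays chose these probes, so the values below describe the calls and do not test how alike the lungs were. Over the 66 higher probes, the median excess over the sham mean was 0.71 in MTS m1, 0.94 in m2, 0.70 in m3 and 0.92 in m4. MTS m2 was the highest of the 4 at 30 of the probes and the lowest at 2, whereas m1 and m3 were the lowest at 25 and 24. The sham lungs stayed within -0.070 and 0.026 of the mean of the other sham lungs by the same measure. Over the 10 lower probes the MTS lungs lay between -0.63 and -0.49 and the sham lungs between -0.19 and 0.13. Leaving out MTS m2 left 45 calls, 41 of them among the 76, and leaving out m1 or m4 left 44 and 46. Of the 76 calls, 35 held without any 1 of the 9 arrays, all of them higher, and 41 were lost without at least 1.

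**Figure D4:**
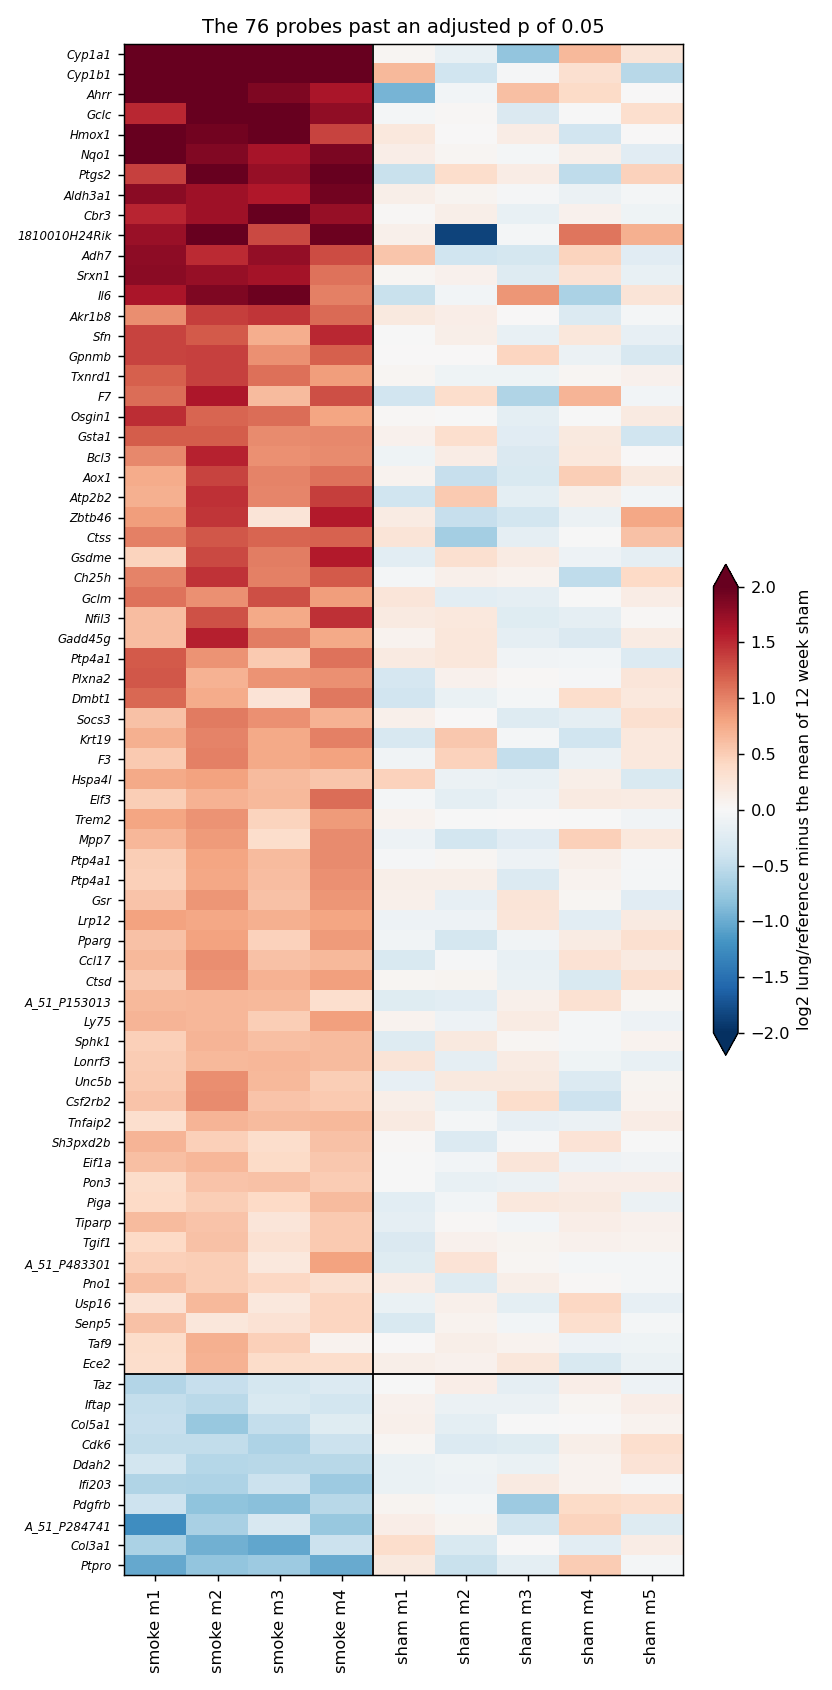
Each row is 1 of the 76 called probes, ordered by fold change, and each column 1 array (4 MTS lungs left of the line, 5 sham lungs right of it). Colour gives log2 lung over reference minus the sham mean, capped at 2 in either direction, and the 66 higher probes lie above the horizontal line and the 10 lower below it.

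The same probes were read in the lungs of other mice after 6 weeks of MTS. Their levels do not enter the 12 week fold changes, but they are in the same model and share its spread and run effects, and so bear on which probes were called. Of the 66 higher probes, 64 lay above 0 at 6 weeks and 39 also had an unadjusted p under 0.05, where 5.07% of all probes did. Of the 10 lower probes, 8 lay below 0 and 6 had such a p (3.34% of all probes). Their median change at 6 weeks was 0.39 for the higher and -0.24 for the lower probes. An array labelled 6 week sham (m2) read 6.46 for Cyp1a1 and 2.00 for Cyp1b1, against 1.25 to 2.81 and -1.74 to -1.16 in the other 4 sham lungs of that time, and so goes against its label. Without this array, 51 of the 66 higher and 6 of the 10 lower probes changed the same way with an unadjusted limma p under 0.05 (5.30% and 3.94% of all probes). The 12 week comparison itself then gave 91 calls (0.518%), all 76 among them. After Benjamini-Hochberg adjustment in limma, 11 probes were called at 6 weeks (0.0626%), 7 of them among the 76 (Tnfaip2, Txnrd1, Cbr3, Aldh3a1, Nqo1 and both CYP1 genes). Without that array there were 33, 20 of them among the 76.

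Genes differed in how much of the 12 week change was there at 6 weeks. Cyp1a1 gave 4.88 at 12 weeks and 3.95 at 6 weeks, Aldh3a1 1.85 and 1.57, Ctss 1.11 and 0.92, and Tnfaip2 0.56 and 0.57. At the other end stood Il6, at 1.63 after 12 weeks and -0.27 after 6, Tgif1 at 0.49 and -0.046, and Dmbt1 at 0.86 and 0.057. Without the doubtful sham array these 3 gave -0.074, -0.085 and 0.076 at 6 weeks. Hmox1 lay between, at 2.05 and 0.72, and Osgin1 at 1.17 and 0.25, and without that array they gave 1.25 and 0.46 at 6 weeks. In all, 11 of the 66 higher probes had more than 0.75 times their 12 week change at 6 weeks and 16 less than 0.25 times, but 18 and 10 without that array. A test of the difference between the 2 lengths over all probes gave 0 calls (0%) after adjustment and 854 probes at an unadjusted p under 0.05 (4.86%), 41 of them among the 76. Since the 12 week values chose these probes and enter the difference, this count and the larger change at 12 weeks in 65 of 66 probes are descriptions. Il6 had the smallest such p of the called genes (6.75e-05).

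After 12 weeks of MTS and a break of 6 weeks, again in other mice, 1 of the 66 higher probes lay above 0 with an unadjusted p under 0.05 (3.64% of all probes) and 0 of the 10 lower probes lay below 0 with such a p (2.79%). That probe was of Usp16, at 0.21 (unadjusted p = 0.0292). In the opposite direction 2 of the 66 lay below 0 with such a p, Sphk1 at -0.35 (0.00429) and A_51_P483301 at -0.21 (0.0473), beside 2.79% of all probes. The median change of the higher probes was 0.048 and that of the lower ones 0.087, with 43 of 66 above 0 and 1 of 10 below. After adjustment there were 0 calls over all probes (0%). Cyp1a1 gave -0.29, Cyp1b1 0.28, Nqo1 -0.0040, Gclc 0.33 and Il6 0.29 (unadjusted p = 0.630, 0.462, 0.984, 0.270 and 0.319 in limma). Cyp1a1 read 0.45 to 1.86 in lungs after the break and 0.85 to 1.95 in the sham lungs of the break.

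**Figure D5:**
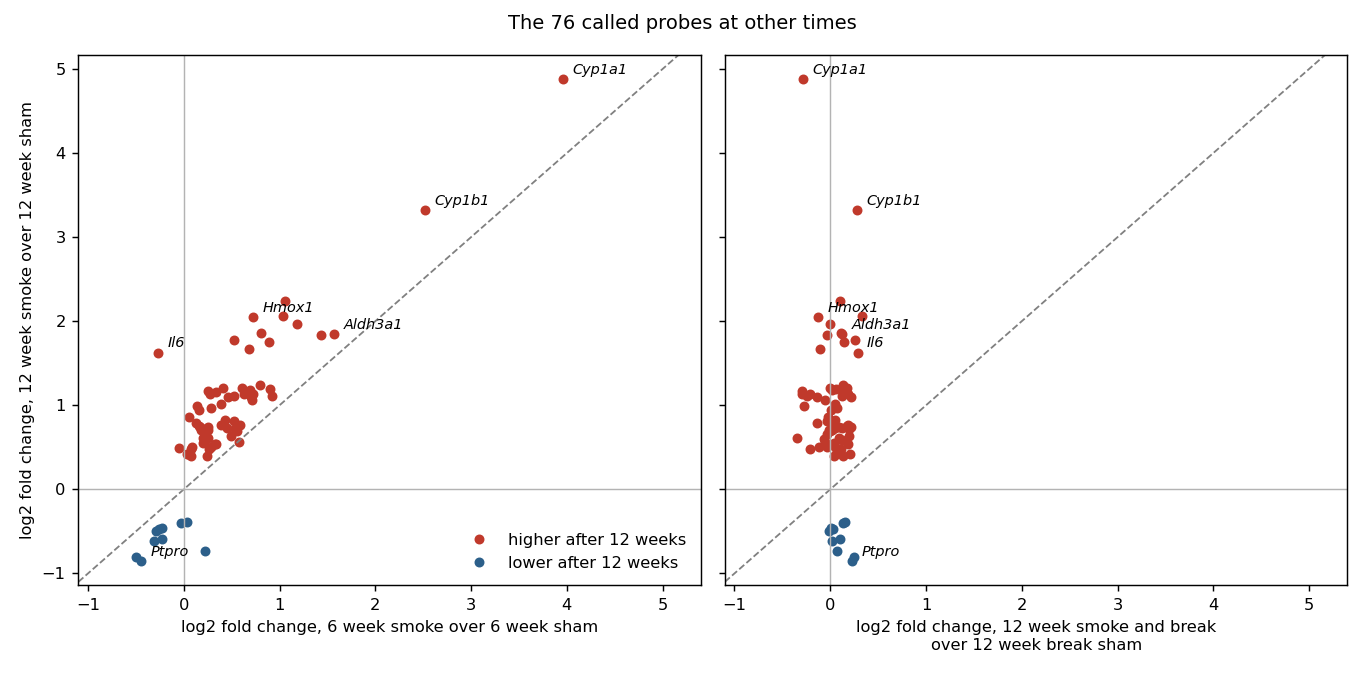
Each point is 1 of the 76 called probes, with the log2 fold change of 12 week smoke over 12 week sham on the y axis against that of 6 week smoke over 6 week sham (left) and of 12 week smoke and break over its break sham (right) on the x axis. At 6 weeks 64 of the 66 higher probes lie right of 0 and most lie left of the dashed line of equal change, and after the break the higher probes lie around 0 with a median of 0.048.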

How the data were processed

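Lung RNA labelled with Cy5 was hybridised with a universal mouse reference RNA (Cy3) to 2-colour Agilent oligonucleotide arrays, in 1 dye orientation. The deposited scanner files hold spot and background intensity in each channel, which the authors took with ImaGene 5.5 without normalization. The authors also deposited LOWESS-normalized log2 ratios of lung over reference, used here as an alternative only.

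Spot medians were background corrected (normexp, offset 50) and normalized by loess within arrays with limma 3.58.1 in R 4.3.3, control spots having weight 0, and spots of a probe were averaged. A probe was kept where Cy5 was above the trimmed mean of the negative controls plus 3 trimmed SD (5% trimmed at each end) in at least 4 arrays of a group, which left 17560 of 20868 gene probes (84.1%). One limma model held all 39 arrays, 8 groups and the 5 runs as a block, with Benjamini-Hochberg adjustment over all kept probes at 0.05, so the 9 arrays share the spread of all. Standard errors, fold changes and p are from this model. Of several probes of a gene, the brightest stands for it. Symbols come from the platform annotation, 19 of them updated through RefSeq, and 18235 probes had 1 symbol. Promoter windows ran from 250 bases before to 50 after RefSeq starts. Of the per-sample columns, 0 were left unused.

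Named genes were the 12 largest increases and 8 largest decreases without overlap, every list member called or else the 2 smallest p, 10 genes shown by array, and all further called probes. Members and lists were chosen with earlier results of these data known, and uncalled genes named for their role (such as Ahr, Nfe2l2, Il1b and Col1a1) after their values were seen. The alternatives were other background corrections, scalings, filters, weights, blocks and sets of arrays, and each of the 9 arrays left out in turn. The fit was tested on simulated data. The study describes 5 mice per group and states that 1 array was removed, without naming its group. By their labels, only 12 week smoke of the 8 groups holds 4 arrays and the others hold 5. The doubtful sham array described in the Results goes against its label, so these counts cannot show which group lost an array. The group of the missing array was not tested.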

Additional observations from a re-analysis of the deposited data

Results flagged for a closer look

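Dixon's test for a single array far from the others of its group was run on 240 groups of values, 2 for each of 119 probes and 2 for 6 week sham lungs. It marked 17, and chance alone marks about 1 in 20. The value given is the gap to the nearest other array over the range of the group, and lies above Dixon's 95% critical value.

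Among the MTS lungs, m2 stood highest for Bcl3 (0.928, at 1.18 with the others between 0.55 and 0.59), Ece2 (0.942) and Csf2rb2 (0.908). MTS m1 stood apart for Ddah2 (0.907, highest at 0.18 with the others between -0.026 and -0.0069), Tnfaip2 (0.856, lowest), Jchain (0.934, lowest at -4.79 with the others between -3.60 and -3.52) and the lipid desaturase Scd1 (0.841, highest at 1.32 with the others between 0.23 and 0.40). MTS m3 was the lowest for Aldh1a7 (0.863), and m4 for the probe A_51_P153013 (0.924).

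Among the sham lungs, m1 stood apart for 4 genes, lowest for Tgif1 (0.909), Aldh1a1 (0.721, at 2.91 with the others between 5.00 and 5.81) and the cardiac calcium channel Ryr2 (0.779, at -1.75 with the others between -0.055 and 0.43) and highest for Scd1 (0.912). The highest values were those of m2 for Pgd (0.776), m3 for Eif1a (0.732) and m4 for Eomes (0.726).

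The array labelled 6 week sham m2 stood apart for Cyp1b1 (0.845), at 2.00 with the others between -1.74 and -1.16. Under its label it enters the 12 week comparison only through the shared spread and run effects.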

How the results depend on the processing

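The 66 higher and 10 lower probes became 74 and 17 without the array labelled 6 week sham m2, 42 and 4 without the run block, 11 and 0 in the 9 arrays alone with the run, 23 and 0 without it, 42 and 23 after median centring, 100 and 27 without marked spots (31.7% to 59.5% of gene spots in MTS lungs and 37.7% to 64.4% in sham lungs), and 144 and 59 with array weights. Median centring gave 64.6% of calls higher and array weights 70.9%, against 86.8%. Leaving out 1 of the 9 arrays left 41 to 59 higher and 2 to 9 lower calls. Thresholds of 0.01 and 0.1, chosen after seeing the data, gave 39 and 2, and 95 and 27. The other settings stayed within 1.5 times. The fits on the 9 arrays alone have few residual degrees of freedom; otherwise the cause was not tested. Wherever a value could be had, the 76 called probes kept their direction under all 23 settings, and Nqo1, Aldh3a1, Cyp1b1, Cbr3, Cyp1a1, Srxn1, Ptgs2 and Hmox1 passed in all of them. Without marked spots 3 uncalled genes changed sign, Col4a3 (-0.0018), Ptcra (-0.086) and Ikzf3 (-0.16). At 6 weeks 11 calls became 33 without the array labelled sham m2. After the break, and between 12 and 6 weeks, limma gave 0 calls under the few settings tried for them. These were the fit as reported, the fits without the array labelled 6 week sham m2 or without the run block, and the authors' log2 ratios. In the fit as reported 1129 and 854 probes had an unadjusted limma p under 0.05. List medians near 0 changed sign for 13 lists, among them the neutrophil (-0.054 to 0.11) and proliferation (-0.092 to 0.046) genes. No paired analysis was possible because the replicate numbers follow the order of records and pair no mice; the only pairing is by run, whose counts in the 9 arrays (11 and 0) stand above. Signal over background limits the rest, since 84.1% of gene probes were bright enough to test.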
